A study of Mus musculus with 15 samples.

Results

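LIM homeodomain factors are transcription factors that join a pair of LIM zinc-finger domains to a homeodomain. The 10 genes described here, *Lhx6*, *Lhx8*, *Lhx1*, *Lhx2*, *Lhx5*, *Lhx9*, *Isl1*, *Isl2*, *Lmx1a* and *Lmx1b*, were taken by name from the expression tables of 2 mutant comparisons. The *Lhx6* table listed 9 of the 10 among 26835 genes, and the *Mtg8* table listed 8 among 25714. The expression of *Lmx1b* was not analysed here, and neither was that of *Isl2* in the *Mtg8* table. Of the rest of the family, *Lhx3* and *Lhx4* were listed in the *Lhx6* table, with at most 2 and 8 reads in any library.

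At embryonic day 14.5, YFP-positive cells were sorted from cortices of C57BL6/CBA embryos, with 1 embryo for each library. Every embryo carried the Nkx2-1-Cre transgene and R26R-YFP fl/fl, so that YFP marks the descendants of cells in which the *Nkx2-1* regulatory sequence was active, whatever they later became. *Lhx6* controls were Lhx6+/+ (4 libraries) and *Lhx6* mutants were Lhx6-/- (5 libraries), with a germline loss-of-function allele made from a floxed line. *Mtg8* controls were Mtg8+/+ (3 libraries) and *Mtg8* mutants were Mtg8-/- (3 libraries), from a line with LacZ knocked into the gene. The study's methods describe the mutants of both lines as littermates of controls. The comparisons ask how the family of LHX6 stands in these cells, whether relatives such as *Lhx8* replace lost *Lhx6*, and whether loss of MTG8, a partner of LHX6, moves any member.

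LHX6 is switched on by NKX2-1 as cells leave the ventricular zone of the medial ganglionic eminence (MGE). It is known for directing the migration of such cells and their fate as somatostatin and parvalbumin interneurons. LHX8 is its closest relative in the mouse, is also made in the MGE, and is known for driving cholinergic neurons of the basal forebrain and striatum together with ISL1. LIM homeodomain factors act in complexes held together by LDB proteins, which SSBP proteins stabilise and for which LMO proteins compete.

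Library depth ranged from 12218422 to 22053032 reads, with a median of 16675975. Some library names start with a date and others do not. All 4 *Lhx6* controls and *Lhx6* mutant 6 had undated names, while the other 4 *Lhx6* mutants had dated ones. Of the *Lhx6* mutants, only mutant 6 shared all but the last number of its name with controls, namely controls 1 and 2. All 10 genes of a list of markers for GABAergic MGE interneurons were measured, with *Gad2*, a GABA-synthesising enzyme, at 3191 to 5551 normalized counts in the *Lhx6* table. Pallial glutamatergic markers were also present, and their summed normalized count was 13404 to 22601 in the *Lhx6* table and 5786 to 22564 in the *Mtg8* table. *Runx1t1*, the gene of MTG8, was not lower in the libraries labelled *Mtg8* mutant (12250 to 13934 normalized counts) than in their controls (7938 to 10265), and they are therefore written below as labelled mutants. Whether mutant transcripts contribute to a gene's count cannot be told from a count per gene.

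Because *Lhx6* and *Lhx8* are related, their sequences were compared first, to see whether a read of 75 bases could belong to either. The longest run shared by any annotated *Lhx6* and *Lhx8* transcript was 14 bases. Over all 45 pairs among the 10 members the longest was 65 bases, a simple repeat in transcripts of *Lhx5* and *Lhx9*, so 0 pairs shared a run of 75 bases. Reads left shorter by trimming, and alignments with mismatches, are not covered by this comparison. The most alike ungapped stretch of 75 coding bases lay in the homeodomain part of *Lhx6* and *Lhx8*, and 61 of the 75 bases were identical (81.3%). These sequences are shown because the separation of the 2 genes' reads rests on their differences. They come from the GENCODE transcripts on GRCm38.p6, they each cross 1 exon junction, and the capitals mark the 14 bases that differ. On the minus strand, the *Lhx6* stretch spans chr2:36091363-36091627 and the *Lhx8* stretch spans chr3:154316786-154321648.
Lhx6: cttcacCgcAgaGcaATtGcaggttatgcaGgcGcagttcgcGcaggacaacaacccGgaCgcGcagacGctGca
Lhx8: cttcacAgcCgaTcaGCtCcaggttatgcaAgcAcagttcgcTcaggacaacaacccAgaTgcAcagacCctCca

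Sequence upstream of transcript starts was available from RefSeq on GRCm38.p6 for 9 of the 10 members, with 12 starts in all, and none for *Lhx5*. The 250 bases before each start were searched on both strands for TAATTA, the core bound by LIM homeodomain proteins, for its variant TAATTG (which reads CAATTA on the other strand) and for CAAGTG (which reads CACTTG there), the core bound by NKX2-1. TAATTA was found before none of the 12 starts and lies in 4.84% of all 32851 upstream windows. TAATTG was found once, 229 bases before 1 of the 3 *Lhx6* starts (7.17% of all windows), and CAAGTG was found once, 11 bases before the *Lmx1a* start (11.6% of all windows). The upstream sequence of that *Lhx6* start and of the single *Lhx8* start is printed because these are the genes that the *Lhx6* comparison turns on, with TAATTG in capitals. The *Lhx6* window is chr2:36104061-36104310 and the *Lhx8* window is chr3:154330561-154330810, both on the minus strand. No binding data were used here, so the matches are descriptions of sequence alone.
Lhx6: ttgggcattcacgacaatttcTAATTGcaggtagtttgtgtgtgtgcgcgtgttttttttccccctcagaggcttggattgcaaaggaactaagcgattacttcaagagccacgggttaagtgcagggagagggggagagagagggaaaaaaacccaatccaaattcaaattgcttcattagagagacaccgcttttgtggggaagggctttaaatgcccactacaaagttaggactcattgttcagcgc
Lhx8: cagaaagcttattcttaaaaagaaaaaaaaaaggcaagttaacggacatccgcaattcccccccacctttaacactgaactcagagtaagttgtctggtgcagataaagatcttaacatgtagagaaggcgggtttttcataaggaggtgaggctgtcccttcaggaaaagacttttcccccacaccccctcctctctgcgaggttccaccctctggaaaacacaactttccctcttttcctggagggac

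*Lhx6* (ENSMUSG00000026890.19, chromosome 2 from 36081953 to 36105408, minus strand) was the targeted gene of the first comparison. Normalized counts, which are reads divided by a size factor for the library, were 8441, 5812, 7552 and 7183 in *Lhx6* controls 1 to 4. In *Lhx6* mutants 1, 2, 3, 5 and 6 they were 313, 236, 495, 271 and 340.5. All mutants lay far below all controls, yet every mutant library still held at least 253 *Lhx6* reads, 1594 in the 5 together. Mutants averaged 331 ± 99.7 (SD, n = 5) against 7247 ± 1093 (SD, n = 4) in controls, a residue of 4.57%. *Lhx6* fell by 4.48 on the log2 scale (standard error 0.20, 95% interval -4.92 to -4.04, adjusted p = 1.34e-07 from limma). It was the 1 member called among the 8 tested in this table, where 114 of 16727 genes, 0.682%, were called lower and 172, 1.03%, were called higher (1.71% in either direction). In sorted pools such as these, fewer cells of a type and less RNA per cell cannot be told apart.

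*Lhx8* (ENSMUSG00000096225.7, chromosome 3 from 154306294 to 154330659, minus strand) was the one relative whose mutant and control libraries did not overlap. Its normalized counts were 12.5, 25.7, 4.61 and 14.5 in *Lhx6* controls 1 to 4, from 64 reads in all. In *Lhx6* mutants 1, 2, 3, 5 and 6 they were 53.2, 139, 26.08, 48.4 and 49.5, from 311 reads in all. Every mutant lay above every control, but the lowest mutant, 26.08, and the highest control, 25.7, almost met, and mutant 2 stood above the other mutants. Mutants averaged 63.2 ± 43.6 (SD, n = 5) and controls 14.3 ± 8.70 (SD, n = 4).

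The log2 fold change of *Lhx8* was 2.05 (standard error 0.55, 95% interval 0.86 to 3.24), and its adjusted p of 0.0982 from limma did not pass the threshold of 0.05. Exact permutation of the 9 libraries gave a two-sided p of 0.0159 for *Lhx8* and, for *Lhx6*, 0.00794, the lowest value possible with 4 against 5. Groups without overlap were found for 2 of the 8 members tested, *Lhx6* and *Lhx8*, and for 6.22% of all genes tested. DESeq2 on the recovered reads called *Lhx8* higher (2.14, adjusted p = 0.00942), in a fit that called 3.02% of genes higher, whereas edgeR, which called 1.01% of genes higher, did not call it (2.13, adjusted p = 0.115). The log2 fold change stayed between 1.49 and 2.39 in all alternatives that kept the gene, and without mutant 2 it was 1.72 (adjusted p = 0.220 from limma). Among undated libraries alone, the log2 value of *Lhx8* in mutant 6 stood 1.92 above the mean of the 4 controls and 1.41 above that of controls 1 and 2, whose names differ from its own in the last number only, and the fit with name style as a covariate, which compares mutant 6 with the 4 controls, gave an adjusted p of 0.966 from limma.

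To set gain against loss, normalized counts were divided by the exonic length of each gene. That length covers all listed exons of the gene, whichever transcripts were made, so comparisons between genes per kb are approximate. *Lhx6* measured 1508 ± 227 (SD, n = 4) normalized counts per kb in controls and 68.9 ± 20.7 (SD, n = 5) in mutants, so that it fell by 1439 per kb. *Lhx8* measured 5.66 ± 3.44 (SD, n = 4) per kb in controls and 25.0 ± 17.2 (SD, n = 5) in mutants, a gain of 19.3. The gain of *Lhx8* thus came to 1.34% of the loss of *Lhx6*, and to 0.825% without mutant 2. Even in mutant 2, where *Lhx8* was highest at 54.8 per kb, it reached 3.64% of the mean *Lhx6* level of controls. Residual *Lhx6* exceeded *Lhx8* per kb in 4 of the 5 mutants, and mutant 2, with 49.1 for *Lhx6*, was the exception.

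The other members together differed between the groups by less than the spread of the libraries. Without *Lhx6*, the members summed to 436 ± 76.6 (SD, n = 4) normalized counts per kb in controls and 469 ± 149 (SD, n = 5) in mutants. The difference of 33.1 ranged from -14.9, without mutant 2, to 88.6, without mutant 3, as single libraries were left out. With *Lhx6* included, the sums were 1944 ± 205 (SD, n = 4) and 538 ± 131 (SD, n = 5). The share of *Lhx6* in the family sum was 69.8% to 82.0% in the control libraries and 6.92% to 29.5% in the mutant libraries, and the 29.5% belonged to mutant 3, where the other members were lowest.

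**Figure D1:**
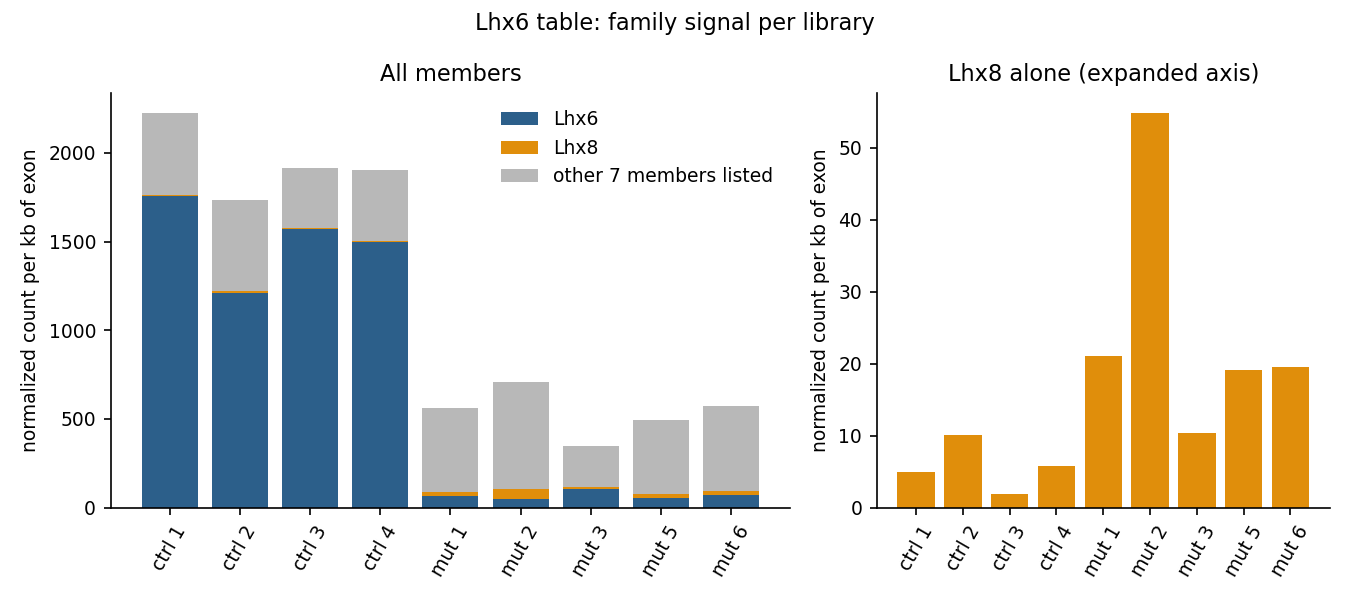
Normalized counts per kb of exon in each library of the *Lhx6* table, with control (ctrl) and mutant (mut) libraries on the horizontal axis. The left panel stacks *Lhx6*, *Lhx8* and the other 7 members listed, and the right panel shows *Lhx8* alone on an expanded axis. Family sums fall from 1732 to 2224 in controls to 349 to 709 in mutants, and *Lhx8* reaches 54.8 in mutant 2.

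Per kb, the order of levels in *Lhx6* controls was *Lhx6*, *Lhx2* (324), *Lhx5* (33.9), *Lhx1* (27.95), *Lhx9* (21.4), *Isl1* (16.7), *Lhx8* (5.66), *Lmx1a* (5.51) and *Isl2* (0.851). *Lhx6* and *Lhx2* each stood above the next gene in all 4 libraries with no overlap in range. Each neighbouring pair from *Lhx5* down to *Isl2* overlapped in range over libraries. Before division by length, mean normalized counts in these controls ran the other way for *Lhx9* (203), *Lhx1* (114) and *Lhx5* (91.1). In *Lhx6* mutants *Lhx2* led with 310.1 per kb, above *Lhx6* in all 5 libraries. *Lhx8* stood sixth in mutants, and its range of 10.3 to 54.8 overlapped those of its neighbours *Lhx9* and *Lhx5*.

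**Figure D2:**
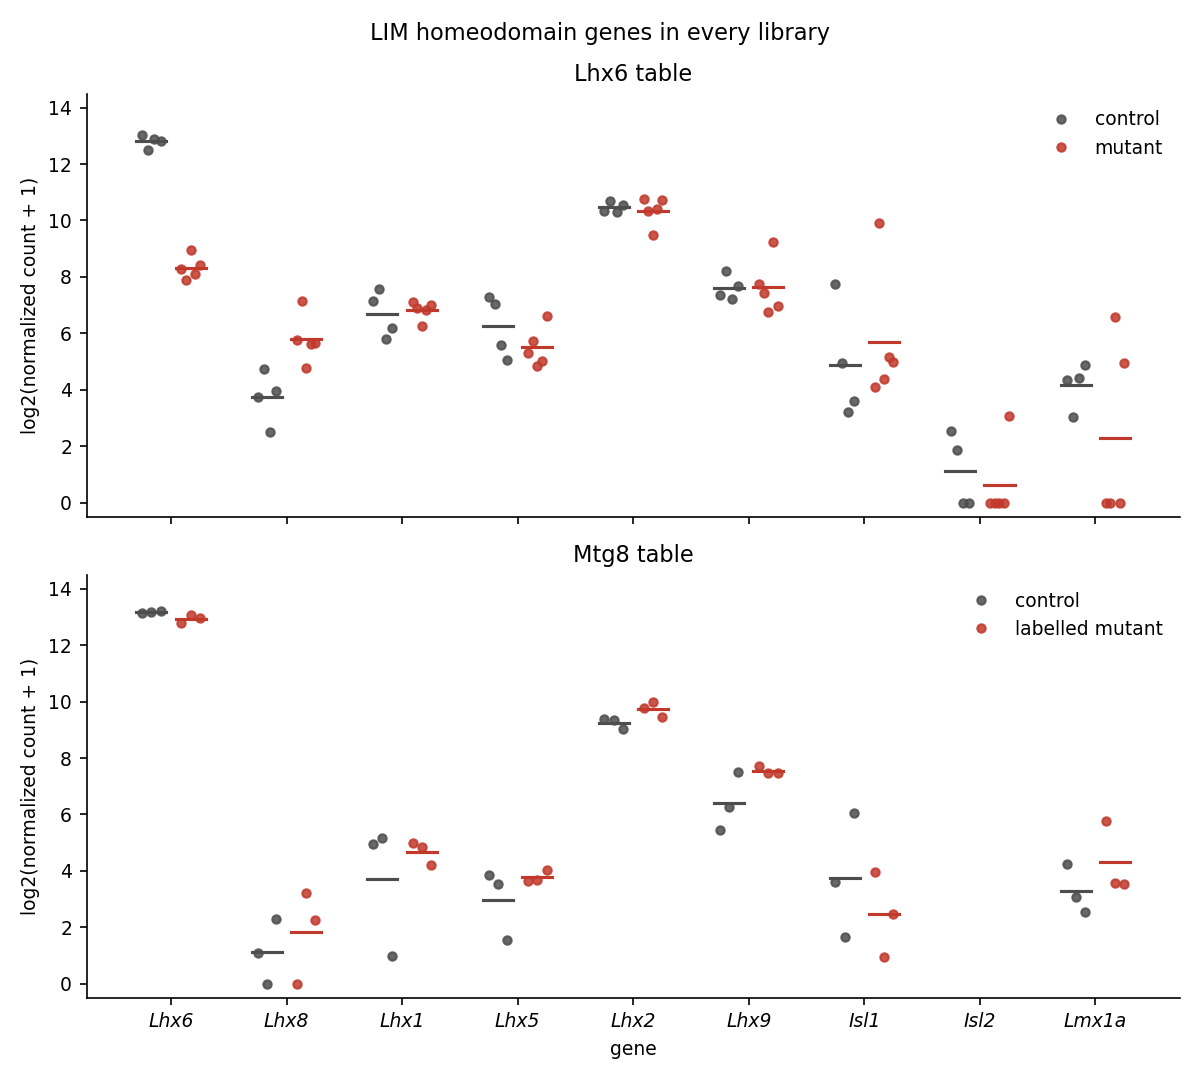
Each point is 1 library, plotted as log2(normalized count + 1) for each member on the horizontal axis, with controls in grey and mutants or labelled mutants in red. Horizontal bars are group means, and the 2 tables were normalized separately. *Lhx6* separates widely in the upper panel and *Lhx8* separates narrowly there. Single mutants hold the highest values in that panel for *Isl1* (962 normalized counts), *Lhx9* (596) and *Lmx1a* (95.001).

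*Lhx2*, which maintains cortical progenitors and represses hem fate in the pallium, was second to *Lhx6* per kb in controls and first in *Lhx6* mutants. It starts 2.23 Mb from the start of *Lhx6* on chromosome 2 (38339281 to 38369733, plus strand). Its normalized counts were 1279, 1648, 1265 and 1497 in *Lhx6* controls and 1755, 1302, 715, 1352 and 1688 in mutants 1, 2, 3, 5 and 6. The groups overlapped, with mutant 3 the lowest of the 9 libraries. The log2 fold change was -0.12 (95% interval -0.62 to 0.38, adjusted p = 0.846 from limma) and turned to 0.10 without mutant 3. None of the 11 pallial markers passed the test in this table, and their sums were 17009 to 22601 in controls and 13404 to 18595 in mutants.

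*Lhx9* (chromosome 1 from 138825186 to 138848577, minus strand), a close relative of *Lhx2* known from the pallium and thalamus, was at 148 to 297 normalized counts in *Lhx6* controls. In the mutants it was at 213, 171, 107, 596 and 125, so that mutant 5 stood above all other libraries. Its log2 fold change was 0.0037 (95% interval -0.92 to 0.93, adjusted p = 0.998 from limma), and it was -0.40 without mutant 5.

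*Lhx1* and *Lhx5* are close relatives of each other, both known from Cajal-Retzius neurons, the early reelin-producing cells of the cortical surface. They lie apart, *Lhx1* on chromosome 11 (84518284 to 84525535, minus strand) and *Lhx5* on chromosome 5 (120431699 to 120441223, plus strand). *Lhx1* measured 139, 190, 54.4 and 71.8 normalized counts in *Lhx6* controls and 136, 118, 76.4, 112 and 126 in the mutants. All 5 mutants lay inside the range of the controls, and the log2 fold change was 0.14 (95% interval -0.63 to 0.92, adjusted p = 0.879 from limma). *Lhx5* measured 155, 130, 47.0 and 32.5 in controls and 38.4, 51.8, 27.9, 31.0 and 97.8 in mutants. The 3 high values, those of controls 1 and 2 and mutant 6, came from the libraries whose names agree in all but the last number. For *Lhx5* the log2 fold change was -0.74 (95% interval -1.85 to 0.36, adjusted p = 0.566 from limma), and it was 0.38 with name style as a covariate. It ran from -1.13 to -0.39 as single libraries were left out. Among the 7 Cajal-Retzius markers measured, 0 were called by limma in either table. The exons of *Lhx5* share 69 bases with *Gm27199* on the opposite strand, which averaged 22.4 normalized counts in this table, and reads of the pair could not be told apart there.

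*Isl1* (chromosome 13 from 116298281 to 116309689, minus strand), known for striatal projection neurons and, with LHX8, for cholinergic neurons, varied through single libraries. Its normalized counts were 214, 30.1, 8.29 and 11.1 in *Lhx6* controls and 16.1, 962, 19.6, 34.9 and 31.0 in mutants 1, 2, 3, 5 and 6. Control 1 and mutant 2, with 223 and 1039 reads, stood far above the other 7 libraries, which ran from 8.29 to 34.9. *Isl1* had a log2 fold change of 0.82 (95% interval -1.69 to 3.34, adjusted p = 0.775 from limma). It was -0.23 without mutant 2 and 1.78 without control 1, so the direction rested on mutant 2.

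Control 1 and mutant 2 also held the highest levels in their groups of *Zic4* (169 and 580 normalized counts), a zinc-finger gene of septal and medial telencephalic cells, and of *Otx2* (192 and 297). *Zic1* was highest in other libraries, control 2 (152) and mutant 1 (485), and hem and choroid plexus genes other than *Otx2* were low in mutant 2, with *Ttr* at 16.7 and *Wnt8b* at 9.26. Control 1 differed from mutant 2 in this, with the highest *Ttr* (5410) and *Wnt8b* (69.2) of the controls. *Drd1*, a receptor of striatal projection neurons, was highest in mutant 2 (47.2) but lowest in control 1 (0.961). Summed striatal projection neuron markers were 882 to 1181 in controls and 1384 to 1774 in mutants, highest in mutant 2, the library that also led for *Lhx8*, and 0 of the 6 tested were called by limma. Most of that sum was *Foxp1* and *Foxp2*, whereas *Tac1* was at 49.0 to 115 in controls, at 122 in mutant 2 and at 0 to 8.67 in the other 4 mutants. The part of such cells in the levels of *Isl1* and *Lhx8* was not tested. These single markers were chosen after their values were seen.

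A list of 11 genes of cholinergic neurons and of the septal and basal forebrain tissue that gives rise to them had 8 in the *Lhx6* table, without *Chat*, *Slc18a3* and *Gbx2*. The 4 genes tested, *Zic1*, *Zic2*, *Zic4* and *Ngfr*, had a median log2 fold change of 0.49, beside -0.04 over all genes tested, and 0 were called by limma. The 3 Zic genes had log2 fold changes above 0, *Ngfr* had -0.61, and *Slc5a7* and *Ache*, which handle choline and acetylcholine, were under the minimum mean, at 2.08 and 9.88 normalized counts in controls and 0.495 and 4.26 in mutants. *Gbx1* had 0 reads in 4 of the 5 mutants and 42.1 normalized counts in mutant 1. The summed level of the list was 210 to 416 in controls and 307 to 1039 in mutants, and mutant 2 was highest.

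*Isl2*, a motor neuron factor, and *Lmx1a*, a factor of the roof plate and cortical hem, were detected in only some libraries. *Isl2* lies on chromosome 9 (55538672 to 55546180, plus strand) and *Lmx1a* on chromosome 1 (167689237 to 167848741, plus strand), and all positions are on GRCm38. *Isl2* had 5 and 3 reads in *Lhx6* controls 1 and 2, 6 reads in mutant 6 and 0 reads in the other 6 libraries, and it was under the minimum mean of 10 for testing. *Lmx1a* had normalized counts of 19.2, 7.09, 20.3 and 28.2 in *Lhx6* controls and 0, 0, 95.001, 0 and 29.7 in mutants 1, 2, 3, 5 and 6. Every control thus held *Lmx1a* reads and 3 of the 5 mutants held none, while mutant 3 stood above all other libraries. In mutants 1, 2 and 5 a count of 0 allows up to 3 reads, or 3.71, 2.78 and 2.91 normalized counts.

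*Lmx1a* had a log2 fold change of -1.85 (95% interval -4.81 to 1.10, adjusted p = 0.587 from limma), and DESeq2 gave the opposite sign (0.41, adjusted p = 0.943). The limma value ran from -2.92 to -1.28 as single libraries were left out. Mutant 3 also held 19054 normalized counts of *Ttr*, the main transcript of choroid plexus, and the highest levels of *Kcne2* (433) and *Folr1* (443), other choroid plexus genes. The other libraries did not follow this match, since control 1 had 5410 of *Ttr* with 19.2 of *Lmx1a*, mutant 5 had 748 of *Ttr* with no *Lmx1a* reads, and mutant 6 had 68.1 of *Ttr* with 29.7 of *Lmx1a*. Summed markers of hem and choroid plexus were 88.1 to 5879 in controls and 48.3 to 20179 in mutants, and their part in *Lmx1a* was not tested. Markers of blood, vessels and microglia spread widely too, with sums of 5931 to 58498 in controls and 1869 to 20482 in mutants, and 0 of the 10 tested were called by limma.

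**Figure D3:**
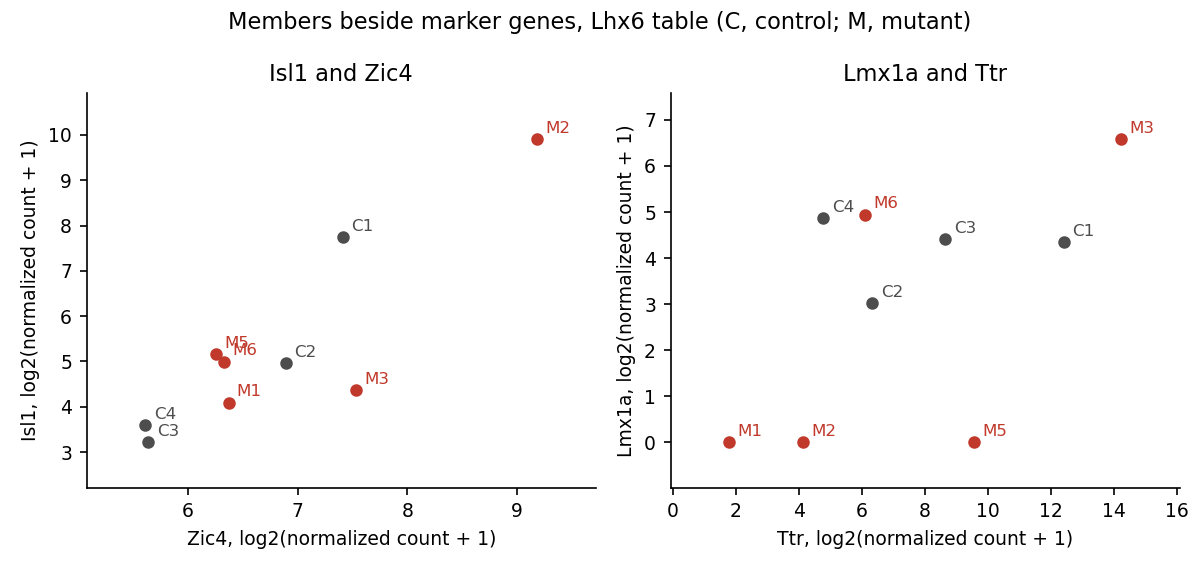
Each point is 1 library of the *Lhx6* table (C, control, and M, mutant, with its replicate number), and both axes are log2(normalized count + 1). The left panel sets *Isl1* against *Zic4* and the right panel sets *Lmx1a* against *Ttr*. Mutant 2 stands alone at 962 and 580 normalized counts on the left, and mutant 3 is highest on both axes at 95.001 and 19054 on the right.

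Among the 9 cofactor genes of LIM homeodomain proteins, 1 was called higher and 0 were called lower in *Lhx6* mutants by limma. Over all genes tested, 1.03% were called higher and 0.682% lower. The number of cofactor genes called higher ran from 0 to 2 over the alternatives. *Ssbp3*, which stabilises LDB complexes, rose, with 8127 ± 1123 normalized counts in mutants (SD, n = 5) and 5070 ± 327 in controls (SD, n = 4), a log2 fold change of 0.67 (adjusted p = 0.0115 from limma). That call was lost without control 1 (adjusted p = 0.0629) and without control 2 (adjusted p = 0.0510), and with name style as a covariate (0.53, adjusted p = 0.668 from limma). *Lmo4*, a competitor for LDB, had 2075 ± 161 (SD, n = 4) and 2860 ± 168 (SD, n = 5) normalized counts without overlap. Its log2 fold change of 0.46 was not called (adjusted p = 0.0639 from limma) but was called by DESeq2 (adjusted p = 0.000523). Without mutant 3, limma called it too (0.49, adjusted p = 0.0415). *Ldb1* (0.40, adjusted p = 0.538) and *Lmo3* (-0.36, adjusted p = 0.478) did not pass limma's test. Without single libraries *Ldb1* ranged from 0.21 to 0.61. The median over the 9 was 0.19.

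Of 11 tested genes that act downstream of or beside LHX6 in MGE interneurons, 5 fell in *Lhx6* mutants and 0 rose by limma. Among them were the neuropeptide genes *Sst* (-3.06) and *Npy* (-1.61), the chromatin organiser *Satb1* (-1.56) and *Nxph1* (-1.42), a secreted neurexin ligand. The list's median was -1.42 beside -0.04 over all genes tested, and the list was assembled with earlier results of these data known. *Nkx2-1*, the factor above *Lhx6*, had 990 ± 83.8 (SD, n = 4) and 1173 ± 307 (SD, n = 5) normalized counts, a log2 fold change of 0.21 (adjusted p = 0.656 from limma). Without single libraries that change was 0.09 to 0.33. *Runx1t1* rose from 7449 ± 1072 in controls (SD, n = 4) to 17973 ± 5387 in *Lhx6* mutants (SD, n = 5), a log2 fold change of 1.23 (adjusted p = 0.00401 from limma) that was not called with name style as a covariate (0.73, adjusted p = 0.659). *Dlx5* (1.02) and *Dlx6* (1.66), homeobox genes of GABAergic neurons, rose, but with name style as a covariate neither was called (0.85 and 0.97, adjusted p = 0.186 and 0.298 from limma). Of 4 markers tested for interneurons from the caudal ganglionic eminence, the serotonin receptor gene *Htr3a* (-1.65) passed limma's test, but it was not called in 9 of 19 alternatives, among them edgeR (adjusted p = 0.0612), name style as a covariate (adjusted p = 0.966) and leaving out any 1 of the 4 controls (adjusted p = 0.115 to 0.174). The log2 fold changes of the other 3, none called by limma, were 0.88 for *Nr2f2*, 1.03 for *Sp8* and -0.59 for *Prox1*, and the summed level of the list was 1150 to 1341 in controls and 1311 to 2339 in mutants.

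Across the 9 libraries of the *Lhx6* table, the genes whose log2 values followed *Lhx6* most closely were *Gucy1a1* (Pearson r = 0.995), *Sst* (0.992) and *Chl1* (0.986). For *Lhx8* they were *Uqcc3* (0.974), *Acot2* (0.951) and *Cdh15* (0.936). These are descriptions over 9 libraries that share a genotype split. *Cdh15* held 0 to 6.20 normalized counts in controls and 8.72 to 35.2 in mutants, with mutant 2 highest. It was picked for its likeness to *Lhx8* over these same libraries, so that pattern follows from the choice.

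Of the members, 7 were tested in the *Mtg8* table, and 0 were called by limma, edgeR or DESeq2, while 2 had an unadjusted p under 0.05 by limma. Over all 16132 genes tested limma called 0 (0%), edgeR called 1 (0.0062%) and DESeq2 called 31 of 16235 (0.191%), and 5.49% of genes had an unadjusted p under 0.05. Groups without overlap were found for 2 members, *Lhx6* and *Lhx2*, and for 10.2% of all genes.

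*Lhx6* itself measured 8994, 9376 and 9489 normalized counts in *Mtg8* controls 1, 2 and 4, and 7055, 8666 and 7953 in labelled mutants 2, 3 and 4. All 3 labelled mutants lay below all 3 controls, with a mean of 85.0% of that in controls. Summed GABAergic MGE markers were 44788 to 47705 in controls and 32382, 27418 and 46611 in labelled mutants 2, 3 and 4, and summed progenitor markers were 6244 to 6747 and 7556 to 10757. Their part in the level of *Lhx6* was not tested. Limma put the log2 fold change at -0.24 (standard error 0.16, 95% interval -0.59 to 0.11, adjusted p = 0.870). With 3 libraries against 3, exact permutation cannot go below p = 0.1, the value found for *Lhx6*. Controls 1 and 2 and labelled mutant 2 had dated names that agree in all but the last number. Control 4 and labelled mutants 3 and 4 had undated names. The log2 difference of *Lhx6* was -0.38 within dated names and -0.19 within undated ones.

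*Lhx2* was at 667, 655 and 517 normalized counts in *Mtg8* controls and at 877, 1013 and 698 in the labelled mutants. Every labelled mutant lay above every control, with a log2 fold change of 0.48 (95% interval 0.0048 to 0.96, unadjusted p = 0.0481, adjusted p = 0.859 from limma). *Lhx9* was at 42.5, 75.7 and 179 in controls and at 211, 177 and 176 in the labelled mutants. Its controls spread widely, and control 4 lay among the labelled mutants. The log2 fold change was 1.16 (95% interval 0.23 to 2.09, unadjusted p = 0.0185, adjusted p = 0.859 from limma), and it was 0.68 without control 1 and 1.71 without control 4. *Lhx9* differed by 1.87 among dated names, where labelled mutant 2 stood against controls 1 and 2. Among undated names it differed by -0.02, with control 4 as the only control. Summed pallial markers were 5786 to 14028 in controls and 9089 to 22564 in the labelled mutants, and their part in *Lhx2* and *Lhx9* was not tested.

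*Lhx8* was near the limit of detection in the *Mtg8* table. It had 1, 0 and 4 reads in *Mtg8* controls and 0, 9 and 5 reads in the labelled mutants, which put it under the minimum mean for testing. *Lhx1* (30.2, 35.2 and 0.978 normalized counts in controls, 30.6, 27.6 and 17.6 in labelled mutants) was set apart by control 4, which held 1 read. Its log2 fold change of 0.97 (95% interval -0.997 to 2.94, adjusted p = 0.899 from limma) became -0.39 without that library. *Lhx5* was at 1.96 to 13.4 in controls and 11.3 to 15.3 in labelled mutants, with a log2 fold change of 0.80 (95% interval -0.69 to 2.28, adjusted p = 0.893 from limma) that was 0.085 without control 4. *Gm27199*, the gene opposite *Lhx5*, averaged 10.2 normalized counts in this table.

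*Isl1* and *Lmx1a* also had single high libraries in the *Mtg8* table. *Isl1* was at 11.2, 2.13 and 64.6 normalized counts in *Mtg8* controls and at 14.7, 0.919 and 4.59 in labelled mutants, with a log2 fold change of -1.30 (95% interval -3.59 to 0.99, adjusted p = 0.885 from limma). It was -2.35 without control 2 and -0.53 without labelled mutant 3, and without control 4 the gene was under the minimum mean. Control 4 held its highest level, and it also held the highest *Zic4* of the 6 libraries (98.8), although labelled mutant 2 had nearly as much *Zic4* (96.3) with little *Isl1*. *Lmx1a* was at 17.9, 7.47 and 4.89 in controls and at 53.2, 11.03 and 10.7 in labelled mutants, with a log2 fold change of 1.01 (95% interval -0.52 to 2.53, adjusted p = 0.873 from limma) that was 0.28 without labelled mutant 2. Labelled mutant 2 held the highest *Lmx1a* and, with 1925 normalized counts against 0 to 17.5 in the other 5 libraries, the highest *Ttr*.

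**Figure D4:**
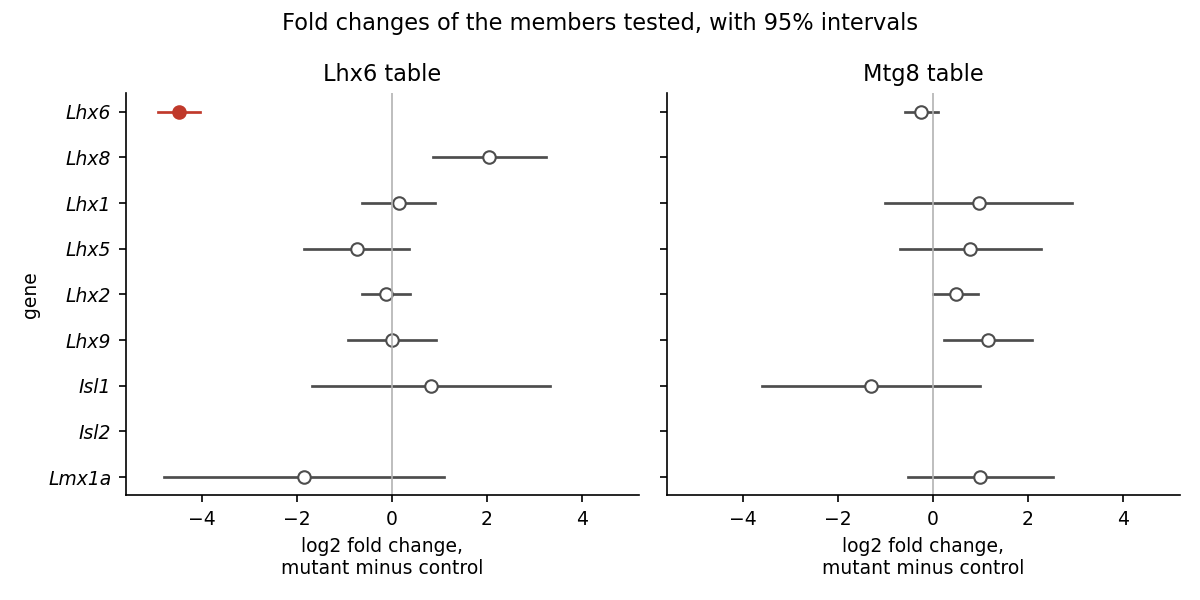
Log2 fold changes of the members tested, mutant minus control, with 95% intervals from limma, for the *Lhx6* table on the left and the *Mtg8* table on the right. The filled red point marks the 1 called member, *Lhx6* at -4.48, and open points were not called. *Isl2* and, in the *Mtg8* table, *Lhx8* were under the minimum mean and have no point.

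None of the 9 cofactor genes and none of the 11 MGE interneuron genes was called by limma in the *Mtg8* table, although without labelled mutant 2 it called *Ssbp4* higher (adjusted p = 0.0308) and *Sst* lower (adjusted p = 0.0259). *Ldb1* had a log2 fold change of 0.05 (adjusted p = 0.975), *Lmo3* -0.21 (adjusted p = 0.901) and *Lmo4* 0.27 (adjusted p = 0.893), all from limma. Without single libraries *Lmo3* ranged from -0.35 to -0.07 and *Lmo4* from 0.14 to 0.48. At *Nkx2-1* the log2 fold change was 0.18 (adjusted p = 0.943), at *Sst* -1.34 (adjusted p = 0.0713) and at *Npy* -1.13 (adjusted p = 0.580), again from limma. DESeq2 called both *Sst* (adjusted p = 9.25e-06) and *Npy* (adjusted p = 0.0247), and limma called *Sst* with a minimum mean of 50 too (adjusted p = 0.0493).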

How the data were processed

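RNA from sorted YFP-positive cells was sequenced as single reads from low-input cDNA libraries. According to the study's methods and processing notes, the authors used fastp 0.20.1 for trimming, STAR 2.7b for alignment to GRCm38.p6 and FeatureCounts 1.6.4 for counts per gene, and removed sex-linked genes. The signal that the authors deposited is each gene's count divided by the DESeq2 size factor of the library, with each table normalized on its own. The fold changes and p-values of the authors' own comparisons were not used. All values (100%) were whole multiples of 1 read within 0.01, so reads were recovered.

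Each table was fitted alone with limma 3.58.1 under R 4.3.3, using its trended variance and two-sided tests, after log2(normalized count + 1). Genes entered with a mean normalized count of 10 or more, and p-values were adjusted by Benjamini-Hochberg over all of them, with a threshold of 0.05. Fold changes are differences of mean values on that scale. The pseudocount shrinks the change of low genes, and single libraries can give the fold change another size or sign than the ratio of means. edgeR 4.0.16 and DESeq2 1.42.0 on recovered reads, other pseudocounts, filters and scalings, blocks and each library left out were alternatives. Scripts were tested on simulated data. Replicate numbers 1 to 3 occur in both *Lhx6* groups, and 2 and 4 in both *Mtg8* groups. Groups come from the sample labels. Floors of 3 reads cover counting error only, and reads carry no molecular identifiers. The number of embryos limits precision.

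The members and all gene lists were chosen with earlier results of these data known. Named genes were the members, the rest of the family, *Runx1t1*, the called genes of each list (up to 4 by smallest adjusted p, with *Npy* added to its list's names and 1 gene of that list not reported here), a few fixed cofactor and MGE genes, and the 3 genes most like *Lhx6* and *Lhx8*. Markers beside *Isl1* and *Lmx1a* and the uncalled genes named from other lists were chosen after their values were seen.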

Additional observations from a re-analysis of the deposited data

Results flagged for a closer look

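Among 20 groups of 4 or 5 libraries, looked at for the members and *Runx1t1* in the *Lhx6* table, 5 held a library far from the others by Dixon's test on normalized counts. Chance flags about 1 in 20 groups of normal values, and these values are skewed. *Isl1* was at 962 normalized counts in mutant 2 (the next mutant was at 34.9) and at 214 in control 1 (next 30.1). *Lhx8* was at 139 in mutant 2, with the next mutant at 53.2. *Lhx9* was at 596 in mutant 5, with the next mutant at 213. *Isl2* was at 7.43 in mutant 6, from 6 reads, and at 0 in the other mutants, where any reads would stand apart. On the log2(normalized count + 1) scale of the fits, 2 of the 5 passed the same limit, *Isl1* in mutant 2 and *Isl2* in mutant 6, and the cause was not tested. Groups of 3, as in the *Mtg8* table, were not looked at.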

How the results depend on the processing

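*Lhx6* kept its direction and its call in *Lhx6* mutants under all 19 alternatives (-4.64 to -4.37 on the log2 scale), and *Lhx8* kept its direction under the 18 that tested it. DESeq2 alone called *Lhx8* (2.14), and a minimum mean of 50 removed it. With name style as a covariate, which leaves mutant 6 against the controls, *Lhx2* turned to 0.26, *Lhx5* to 0.38, *Lhx9* to -0.64, *Lmx1a* to 0.78 and *Nkx2-1* to -0.30, and in the *Mtg8* table *Nkx2-1* turned to -0.045. *Lmx1a* turned to 0.40 with edgeR and 0.41 with DESeq2, *Lhx1* to -0.0083 and -0.0037, and *Lhx9* to -0.032 with TMM factors and -0.052 with equal totals. Without single libraries of the *Lhx6* table, *Isl1* ranged from -0.23 to 1.78, *Lhx1* from -0.15 to 0.45, *Lhx2* from -0.23 to 0.10 and *Lhx9* from -0.40 to 0.22. In the *Mtg8* table *Lhx1* ranged from -0.39 to 1.70, *Nkx2-1* from -0.13 to 0.44 and *Ldb1* from -0.015 to 0.14. None of these members was called in any setting, and the cause of the turns was not tested. Same-numbered *Lhx6* libraries did not deviate together (correlations -0.15, 0.0017 and 0.07 for numbers 1 to 3). Differently numbered control and mutant libraries averaged 0.0044 there. Those of the *Mtg8* table had correlations of 0.14 and 0.16, above the mean of -0.043 for differently numbered ones. With only 2 such pairs, whether the *Mtg8* numbers stand for pairs cannot be told. The numbers were not taken as pairs in the main fits. With the replicate number as a block, *Lhx1* was -0.079 and *Lhx9* -0.29 in the *Lhx6* table, *Ssbp3* was -0.031 in the *Mtg8* table, *Lhx8* was 2.22 (adjusted p = 0.253 from limma), and no member changed its call. In the *Mtg8* table the block called 2 cofactor genes higher, *Lmo1* (adjusted p = 0.0286 from limma) and *Ssbp4* (0.000283), and 2 MGE genes lower, *Sst* (0.000162) and *Npy* (5.4e-05). There the block compares genotypes only within numbers 2 and 4, the numbers that both groups hold. Its p-values and counts of called genes in that table therefore rest on very few libraries. *Runx1t1* lost its call under the block (1.34, adjusted p = 0.0541 from limma), *Ssbp3* under the block (0.351) and with name style (0.668), *Dlx5* under both (0.0812 and 0.186), *Dlx6* with name style (0.298) and *Htr3a* in 9 of 19 alternatives. The block gave 37 lower and 49 higher genes in the *Lhx6* table and 12 and 88 in the *Mtg8* table, DESeq2 gave 271 and 540 and 10 and 21, and name style gave 42 and 15 in the *Lhx6* table. In the *Mtg8* table a minimum mean of 50 gave 1 lower and 1 higher gene, and no filter and edgeR gave 1 higher gene each. Without single libraries the counts were 55 to 148 lower and 104 to 344 higher in the *Lhx6* table, and 0 to 4 and 0 to 83 in the *Mtg8* table, the highest without labelled mutant 2. In the *Lhx6* table, 55, 67, 63 and 66 lower genes were left without controls 1 to 4, and 104, 107 and 107 higher genes without controls 1, 2 and 4, while 344 were higher without mutant 6. Low counts limit *Isl2* and, in the *Mtg8* table, *Lhx8*, which were under the minimum mean for testing.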
